A study of Homo sapiens with 6 samples.

Results

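AP-1 is a family of dimeric transcription factors built from basic leucine zipper (bZIP) proteins, and 10 of its genes are described here in T3M4, an established human pancreatic ductal adenocarcinoma cell line. The 10 genes were taken by symbol from the gene count table of 58735 genes: FOS, FOSB, FOSL1 and FOSL2 of the Fos family, JUN, JUNB and JUND of the Jun family, and the related bZIP genes ATF3, BATF3 and MAFF. The count table itself marks all 10 as bZIP factors. Untreated cells were compared by RNA sequencing in 3 libraries labelled MUC16 knockout (titled T3M4M16) and 3 libraries labelled as expressing MUC16 (titled T3M4WT, called WT here). The cells grew in DMEM with serum and antibiotic and were harvested near confluence. How the knockout was made, and whether it is a single clone, is not given in the sources used here.

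Jun proteins pair with each other or with Fos proteins, whereas Fos proteins need a Jun-type partner. The dimers bind the TPA response element TGACTCA or the related cyclic AMP response element TGACGTCA. JUN, FOS and FOSB are strong activators, JUNB and JUND are weaker or can restrain JUN, and ATF3 is often a repressor. MAFF is a small Maf protein with no activation domain. Many of these genes are immediate early genes, transcribed within minutes of growth factor or stress signals through ERK, JNK and p38 kinases. In carcinomas with active RAS signalling, FOSL1 is a known output of the ERK pathway.

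The libraries held 19088927 to 28612621 counts. The targeted gene went against the labels. MUC16 had 292, 504 and 323 counts in the libraries labelled knockout, against 98, 144 and 90 in the WT libraries (log2 fold change 1.79 ± 0.17, SE, edgeR quasi-likelihood test, Benjamini-Hochberg adjusted p = 4.79e-09). Relative to its length of 43830 bases MUC16 was low, at the 8.26 percentile of all genes tested by mean level per kilobase. Whether the protein was lost, or the labels hold, cannot be read from these counts. Directions below are for the knockout-labelled libraries against the WT ones, by label. The epithelial marker EPCAM had 315.2 ± 19.002 in the libraries labelled knockout and 199.6 ± 4.87 in WT libraries (CPM, counts scaled to a common library size, SD, n = 3 each). All 10 markers of its list were higher at an edgeR adjusted p under 0.05. Of all genes tested, 26.7% were higher and 25.9% lower. Among markers of other cell types, 4 of 10 fibroblast, 3 of 10 leukocyte and 5 of 8 endothelial genes were detected well enough to test. Tested fibroblast markers summed to 46.6 to 51.6 CPM in the libraries labelled knockout and 34.7 to 37.4 CPM in WT libraries. Leukocyte markers summed to 5.91 to 7.22 CPM in the libraries labelled knockout and 3.53 to 4.27 CPM in WT libraries, and endothelial markers to 28.7 to 31.9 CPM in the libraries labelled knockout and 16.7 to 21.3 CPM in WT libraries. The leukocyte marker LYZ had 18, 24 and 28 counts in the libraries labelled knockout and 3, 4 and 2 in WT libraries. LYZ was detected well enough to test only through the libraries labelled knockout. MS4A1 was at 0 in all 6 libraries, COL1A2, FAP and CD3E were at 0 in all but 1, and PTPRC had 0 to 8 counts. The part of these markers in the results below was not tested. In a bulk sample, fewer cells with a transcript and less of it per cell cannot be told apart. The labels do not state whether replicates were grown as separate cultures. The p-values therefore cover the variation among these 6 libraries, and that variation may be technical.

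Response elements in the promoters are shown first, because several AP-1 genes are known to be controlled by AP-1 or CREB-type dimers. Promoters from RefSeq (GRCh38.p14) were matched by symbol for 8 of the 10 genes, as 10 windows of 250 bases before the annotated start. The element TGACGTCA was present in a window of JUND and of MAFF. The variant TGACATCA, the proximal element described in the JUN promoter, was present in a window of JUN and of ATF3. The further windows of ATF3 (chr1:212614768-212615017) and MAFF (chr22:38202770-38203019) held neither element. Capitals mark the elements in these 30-base stretches.

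JUN, chr1:58784096-58784125, minus strand: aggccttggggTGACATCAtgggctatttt
ATF3, chr1:212565273-212565302, plus strand: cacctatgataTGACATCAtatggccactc
JUND, chr19:18281804-18281833, minus strand: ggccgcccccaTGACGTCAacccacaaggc
MAFF, chr22:38201929-38201958, plus strand: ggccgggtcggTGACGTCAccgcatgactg

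Both strands were searched with these exact letters. Of 35116 promoter windows of the same length, 1.65% held TGACGTCA, 2.37% held TGACATCA or its complement, and 4.2% held TGACTCA or its complement, which was found in none of the windows of the 8 genes. The elements of JUN and ATF3 carry the same letters, and below JUN was lower and ATF3 higher. JUND and MAFF share TGACGTCA, and below both were higher, though the MAFF call was lost under several other settings. Whether these elements or starts are used in these cells was not tested. The whole JUND window, chr19:18281623-18281872 on the minus strand, is given because JUND had the largest rise of the 10 genes, with the element in capitals. It is 74.8% G and C, against a median of 58.0% over all windows.

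JUND: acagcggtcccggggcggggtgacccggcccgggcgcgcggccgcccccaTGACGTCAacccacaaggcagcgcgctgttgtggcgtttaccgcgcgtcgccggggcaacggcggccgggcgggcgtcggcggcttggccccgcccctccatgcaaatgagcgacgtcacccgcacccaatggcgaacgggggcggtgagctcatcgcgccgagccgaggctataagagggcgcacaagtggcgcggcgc

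The AP-1 genes went in both directions. FOSL1 and JUN were lower in the libraries labelled knockout, while JUND, ATF3, JUNB, FOSL2, FOS and MAFF were higher, and FOSB and BATF3 did not pass the test. All 10 genes passed the filter on low counts. At an adjusted p threshold of 0.05, 8 of 10 were called, 6 higher and 2 lower (edgeR quasi-likelihood, Benjamini-Hochberg over 16655 genes). Over all genes tested 52.6% were called, 26.7% higher and 25.9% lower, so a call by itself is common in this comparison. The values of the groups did not overlap for the same 8 genes, and for 59% of all genes tested. The median log2 fold change was 0.17 over the 10 genes and 0.00 over all genes tested. The calls of FOS and MAFF were lost under several other settings, given below with their values.

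**Figure D1:**
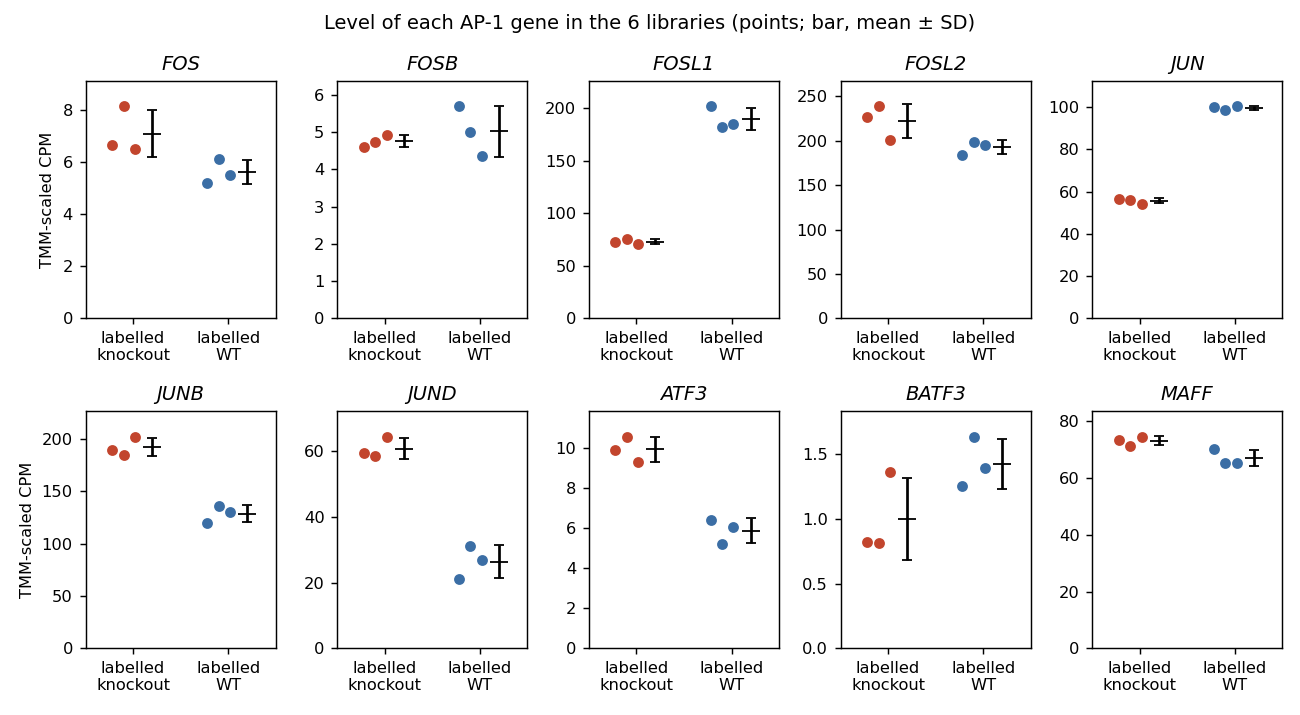
Levels of the 10 AP-1 genes in TMM-scaled CPM (y axes, each from 0), with a point per library and the mean ± SD of each group beside the points (n = 3 each). FOSL1 sits at 70.7 to 75.1 CPM in the libraries labelled knockout, below the 182.7 to 201.8 CPM of the WT libraries, and JUND at 58.5 to 64.4 CPM in the libraries labelled knockout, above the 21.2 to 31.0 CPM of the WT libraries.

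The Fos family has a pair of classical immediate early members, FOS and FOSB, and the Fos-related antigens FOSL1 and FOSL2, which lack a strong transactivation domain. FOSL1 (ENSG00000175592, chromosome 11, 65892049 to 65900573, minus strand, GRCh38) encodes Fra-1, associated with invasive carcinoma cells. It had 1426, 1930 and 2070 counts in the libraries labelled knockout, against 5319, 4915 and 4140 in WT libraries. The values are 73.0, 75.1 and 70.7 CPM in the libraries labelled knockout and 201.8, 182.7 and 185.5 CPM in WT libraries. Every library labelled knockout lay far below every WT library, with little spread inside either group. FOSL1 averaged 72.9 ± 2.20 CPM in the libraries labelled knockout and 190.0 ± 10.3 CPM in WT libraries (SD, n = 3 each). The log2 fold change was -1.38 ± 0.05 (SE, 95% interval -1.48 to -1.28, edgeR adjusted p = 1.87e-16), a 2.61-fold lower level and the largest fall of the 10 genes.

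FOSL2 (ENSG00000075426, chromosome 2, 28392448 to 28417312, plus strand) encodes Fra-2 and moved the other way. Its levels were 226.6, 238.8 and 201.1 CPM in the libraries labelled knockout, against 184.1, 199.2 and 194.8 CPM in WT libraries. The groups did not overlap, but the lowest knockout-labelled library, replicate 3, lay just above the highest WT library. The log2 fold change of FOSL2 was 0.20 ± 0.05 (SE, edgeR adjusted p = 0.00195), a 1.15-fold higher level, and it ran from 0.15 to 0.27 when each library was left out in turn.

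FOS (ENSG00000170345, chromosome 14, 75278774 to 75282230, plus strand), the founding member, was low in these unstimulated cells. It had 130, 209 and 190 counts, or 6.65, 8.13 and 6.49 CPM, in the libraries labelled knockout, against 137, 164 and 123 counts, or 5.20, 6.09 and 5.51 CPM, in WT libraries. The groups lay side by side, with knockout-labelled replicate 2 standing above the other libraries. FOS passed the test narrowly (log2 fold change 0.34 ± 0.13, SE, edgeR adjusted p = 0.0342). Without that library the log2 fold change was 0.23 (adjusted p = 0.195), and the call was also lost without WT replicate 1 (adjusted p = 0.113) or WT replicate 3 (0.0808). FOSB (ENSG00000125740, chromosome 19, 45467995 to 45475179, plus strand), a close relative of FOS, was at 4.61, 4.75 and 4.92 CPM in the libraries labelled knockout and 5.69, 5.02 and 4.35 CPM in WT libraries. The FOSB values of the groups overlapped, and its log2 fold change of -0.08 had a 95% interval of -0.38 to 0.22 (edgeR adjusted p = 0.671).

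**Figure D2:**
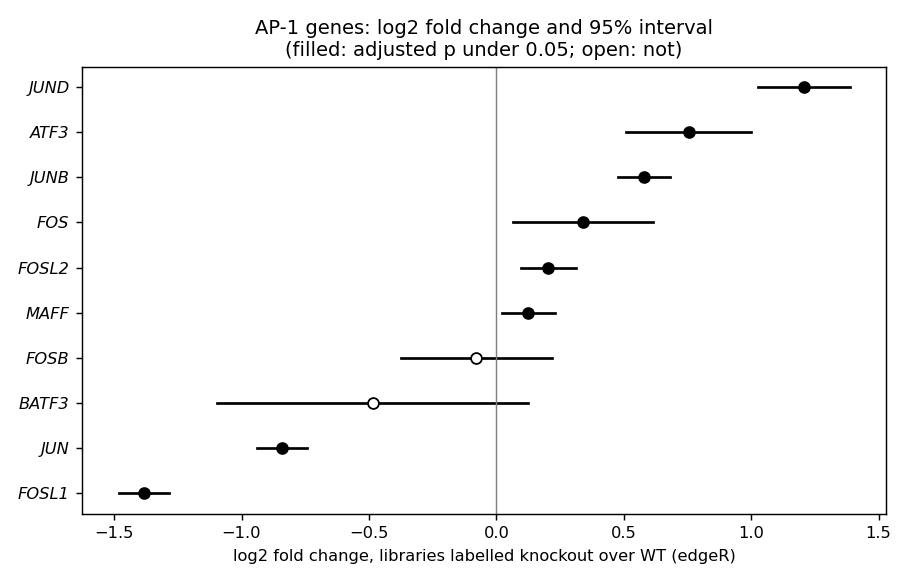
Log2 fold change of each AP-1 gene (x axis, libraries labelled knockout over WT, points) with its 95% interval (lines, edgeR), filled where the adjusted p is under 0.05. FOSL1 at -1.38 and JUN at -0.84 lie left of 0, JUND at 1.21 lies farthest right, and the intervals of FOSB and BATF3 span 0.

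All 3 Jun genes changed, and not in the same direction. JUN (ENSG00000177606, chromosome 1, 58780788 to 58784327, minus strand), the archetypal partner of FOS and target of JNK, had 1104, 1445 and 1589 counts in the libraries labelled knockout and 2643, 2650 and 2239 in WT libraries. As levels these are 56.5, 56.2 and 54.3 CPM in the libraries labelled knockout, against 100.3, 98.5 and 100.3 CPM in WT libraries. The groups were tight and wide apart. JUN fell to 55.7 ± 1.22 CPM in the libraries labelled knockout, against 99.7 ± 1.06 CPM in WT libraries (SD, n = 3 each, log2 fold change -0.84 ± 0.05, SE, edgeR adjusted p = 6.79e-13).

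JUND (ENSG00000130522, chromosome 19, 18279760 to 18281622, minus strand), a Jun protein associated with quiescent cells, rose most. It had 1160, 1505 and 1886 counts in the libraries labelled knockout and 558, 835 and 600 in WT libraries. Its levels were 59.4, 58.5 and 64.4 CPM in the libraries labelled knockout, against 21.2, 31.0 and 26.9 CPM in WT libraries. The WT libraries were uneven, with replicate 2 highest and replicate 1 lowest, yet all stayed below the other group. The log2 fold change was 1.21 ± 0.09 (SE, edgeR adjusted p = 5.79e-11), a 2.31-fold higher level, and ran from 1.06 to 1.34 when each library was left out in turn. The biological coefficient of variation of JUND was 0.0692, against a median of 0.0462 over the 200 genes nearest in level.

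JUNB (ENSG00000171223, chromosome 19, 12791496 to 12793315, plus strand), which can oppose JUN on shared targets, was the most abundant AP-1 transcript per length in the libraries labelled knockout and came after FOSL1 in WT libraries. Its levels were 189.5, 185.1 and 202.3 CPM in the libraries labelled knockout, against 120.1, 136.0 and 130.1 CPM in WT libraries. The groups did not overlap, and JUNB averaged 192.3 ± 8.92 CPM in the libraries labelled knockout and 128.7 ± 8.05 CPM in WT libraries (SD, n = 3 each, log2 fold change 0.58 ± 0.05, SE, edgeR adjusted p = 7.35e-10). The whole JUNB gene lies inside HOOK2 on the opposite strand, and 14.2% of its exon bases are also HOOK2 exon. The library kit does not mark strand, so reads there cannot be told apart. HOOK2 had 90.8 CPM in the libraries labelled knockout and 83.4 CPM in WT libraries (log2 fold change 0.12, edgeR adjusted p = 0.0264).

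**Figure D3:**
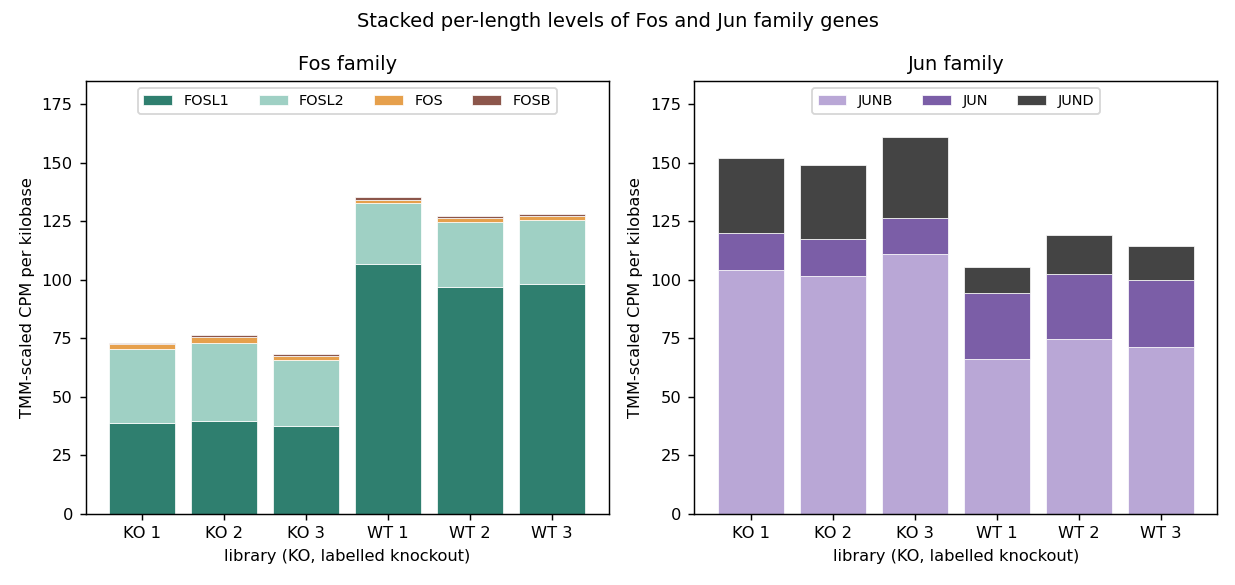
Per-length levels (TMM-scaled CPM per kilobase, y axis) of the Fos genes (left) and Jun genes (right), stacked for each library, with libraries labelled knockout (KO) left of WT. The Fos stacks reach 68.4 to 76.5 in the libraries labelled knockout and 127.4 to 135.3 in WT libraries, mostly through the FOSL1 segment.

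On a per-length scale the makeup of both families differed between the groups. Levels here are TMM-scaled CPM per kilobase of the gene length in the count table, the scale used to compare genes with each other. The summed Fos level was 72.7 ± 4.06 in the libraries labelled knockout and 130.2 ± 4.40 in WT libraries (SD, n = 3 each). FOSL1 made up 52.8%, 52.0% and 54.7% of that sum in the libraries labelled knockout, against 79.0%, 76.0% and 76.8% in WT libraries. FOSL2 took 42.6% ± 1.38 in the libraries labelled knockout and 20.7% ± 1.49 in WT libraries. The order of FOSL1 and FOSL2, and the distance between them, depend on the division by length. In plain CPM, FOSL1 took 23.8% and FOSL2 72.3% of the sum in the libraries labelled knockout, against 48.3% and 49.0% in WT libraries. FOSL1 was still ahead in WT replicate 1 (50.9%, FOSL2 46.4%). FOS made up 3.005% ± 0.247 of the per-length sum in the libraries labelled knockout and 1.33% ± 0.145 in WT libraries.

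The summed Jun level went the other way, at 154.0 ± 6.27 in the libraries labelled knockout and 113.0 ± 6.85 in WT libraries. JUNB was the largest share in every library, 68.6% ± 0.387 in the libraries labelled knockout and 62.6% ± 0.127 in WT libraries. JUN and JUND changed places behind it. JUND made up 21.0%, 21.1% and 21.5% of the Jun sum in the libraries labelled knockout, against 10.8%, 13.97% and 12.6% in WT libraries. JUN made up 10.2% ± 0.618 in the libraries labelled knockout and 25.0% ± 1.74 in WT libraries. These sums and shares follow from the genes' own changes and carry no test.

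The order of per-length levels in the libraries labelled knockout was JUNB (105.7), FOSL1 (38.6), JUND (32.6), FOSL2 (31.0), JUN (15.7), MAFF (13.0), ATF3 (2.46), FOS (2.19), FOSB (0.857) and BATF3 (0.369). In WT libraries it was FOSL1 (100.7), JUNB (70.7), JUN (28.2), FOSL2 (26.9), JUND (14.2), MAFF (11.9), FOS (1.73), ATF3 (1.46), FOSB (0.904) and BATF3 (0.525). Among neighbours, the values of JUND and FOSL2 overlapped in the libraries labelled knockout, as did those of ATF3 and FOS. JUN and FOSL2, and JUND and MAFF, overlapped in WT libraries. JUNB stood at the 97.3 percentile of all genes tested by per-length level, FOSL1 at the 96.4, FOS at the 38.6 and BATF3 at the 16.3.

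The 3 remaining genes are bZIP relatives with partners of their own. ATF3 (ENSG00000162772, chromosome 1, 212565334 to 212620777, plus strand), a stress-induced factor, had 194, 272 and 273 counts in the libraries labelled knockout and 169, 140 and 135 in WT libraries. Its levels were 9.93, 10.6 and 9.32 CPM in the libraries labelled knockout, against 6.41, 5.20 and 6.05 CPM in WT libraries. No library of either group crossed into the other. The log2 fold change of ATF3 was 0.76 ± 0.12 (SE, edgeR adjusted p = 1e-05). MAFF (ENSG00000185022, chromosome 22, 38200767 to 38216511, plus strand), which can pair with FOS or with NRF-type factors, differed little. It had 73.3, 71.3 and 74.5 CPM in the libraries labelled knockout and 70.3, 65.3 and 65.2 CPM in WT libraries. The groups were apart, but WT replicate 1 was close to the libraries labelled knockout. The MAFF call (log2 fold change 0.13 ± 0.05, SE, edgeR adjusted p = 0.0395) was lost without knockout-labelled replicate 1 (adjusted p = 0.104) or 3 (0.0945), and without WT replicate 2 (0.144) or 3 (0.165).

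BATF3 (ENSG00000123685, chromosome 1, 212686418 to 212699985, minus strand), known from dendritic cell development, was barely present. It had 16, 21 and 40 counts in the libraries labelled knockout, against 33, 44 and 31 in WT libraries. The values overlapped through knockout-labelled replicate 3. At this depth no difference in BATF3 was detectable (log2 fold change -0.48, 95% interval -1.10 to 0.13, edgeR adjusted p = 0.176). Without that library its log2 fold change was the lowest of the leave-outs, -0.80.

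The authors' deposited table gives log2 fold changes of -1.39 for FOSL1, -0.85 for JUN, 1.19 for JUND, 0.57 for JUNB, 0.74 for ATF3 and 0.19 for FOSL2, with adjusted p-values of which that of FOSL2, 0.00245, is the highest. In the authors' deposited table FOS (adjusted p = 0.136) and MAFF (0.128) were not past 0.05, and neither were FOSB (0.774) and BATF3 (0.343).

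Base composition moved with the differences. Genes with GC-rich transcripts were higher in the libraries labelled knockout as a group. The 621 genes tested with a GC content of 65% or more had a median log2 fold change of 0.24, with 43.5% higher and 16.4% lower. The 3559 genes with 40 to 45% GC had a median of -0.03, with 21.9% higher and 27.7% lower. JUND is the most GC-rich of the AP-1 genes at 69.7%, followed by JUNB at 64.9%, MAFF at 61.9% and FOSL1 at 60.04%. The 500 genes nearest to JUND in GC content had a median log2 fold change of 0.27 and a 5th to 95th percentile range of -0.54 to 1.88, so the JUND value lies inside it. For FOSL1 the same range was -0.59 to 1.45 and the FOSL1 value of -1.38 lies outside, as does that of JUN (-0.72 to 1.48). With each library corrected for GC content, a setting added once the data had been seen, the log2 fold change was 0.91 for JUND, 0.40 for JUNB, -1.48 for FOSL1 and -0.89 for JUN, all still past the threshold. MAFF was at 0.01 with this correction (adjusted p = 0.934).

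**Figure D4:**
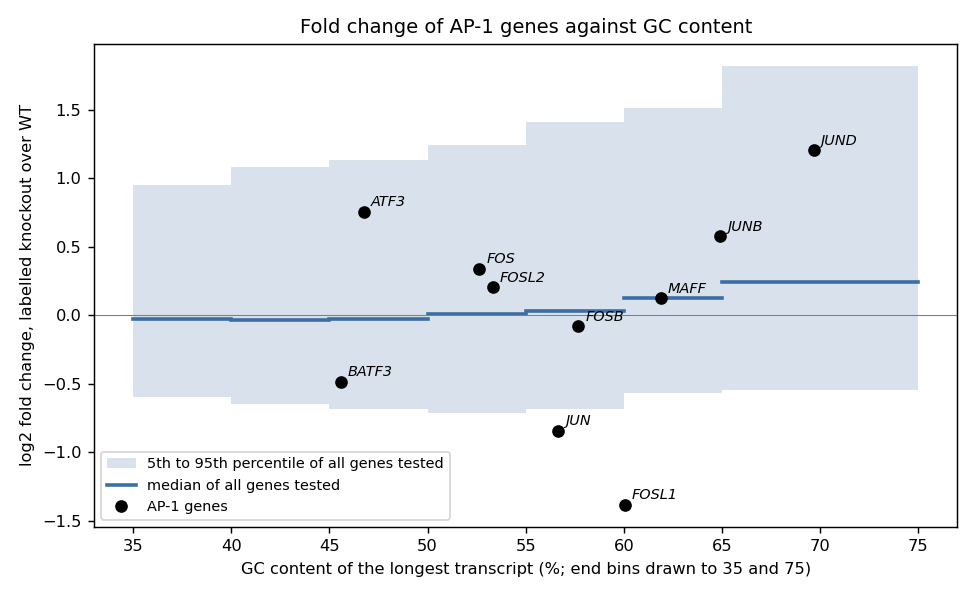
Log2 fold change (y axis, libraries labelled knockout over WT) of the AP-1 genes (points) against the GC content of their longest transcript (x axis, %), over the median (lines) and 5th to 95th percentile (shading) of all genes tested per GC bin. The median of all genes climbs to 0.24 in the most GC-rich bin, where JUND lies, while FOSL1 and JUN lie below the shading.

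JUN, JUNB and JUND, with 1-exon transcripts, went both ways, as did JUN (lower) and ATF3 (higher) on chromosome 1. On chromosome 19 JUNB and JUND were both higher, and FOSB did not pass the test. JUNB, JUND and FOSB lie on chromosome 19, whose 1122 tested genes had a median log2 fold change of 0.08, and JUN, ATF3 and BATF3 lie on chromosome 1 (median -0.03 over 1724 genes). FOSB lies inside ERCC1, and 4924 bases of MAFF overlap PLA2G6, on opposite strands and with no shared exon base. ERCC1 was lower in the libraries labelled knockout (log2 fold change -0.17, edgeR adjusted p = 0.00797) and PLA2G6 higher (0.62, adjusted p = 2.06e-05). Their part in the FOSB and MAFF counts was not tested.

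Across the 6 libraries the genes whose log2 level followed FOSL1 most closely, of 9722 with at least 10 CPM, were ZNF280C, FBXW7 and COA7 (Pearson r of 0.9996, 0.9995 and 0.9992). For FOS they were GOLGB1, CCDC186 and CNKSR1 (0.997, 0.989 and 0.986). With 2 groups of 3 libraries these values mostly describe the difference between groups, and they carry no test.

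Other bZIP genes that can pair or compete with AP-1 were more often higher than lower. Of 34 listed, 31 were tested, with 14 higher and 3 lower (median log2 fold change 0.17). Among all genes tested, 26.7% were higher and 25.9% lower. BACH1, a repressor that binds with small Maf proteins such as MAFF, had 79.3 ± 2.27 CPM in the libraries labelled knockout and 47.2 ± 2.80 CPM in WT libraries (SD, n = 3 each, log2 fold change 0.75). CEBPD (0.72), CEBPA (0.71) and the clock output factor DBP (0.62) were also higher. Of the 38 other genes that the count table marks as bZIP, 33 were tested, with 13 higher and 4 lower. The higher genes of each list include NFE2, at 1.77 CPM in the libraries labelled knockout and 0.053 CPM in WT libraries. NFE2 passed the filter on low counts only through the libraries labelled knockout.

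The kinases and activators upstream of AP-1 went in both directions. Of 22 kinases tested from the ERK, JNK and p38 cascades, 8 were higher and 6 lower (median log2 fold change 0.02). For this list and the next, the shares over all genes tested were 26.7% higher and 25.9% lower. The p38 kinases MAPK11 (0.97) and MAPK13 (0.45), their activator MAP2K6 (1.03), ERK1, MAPK3 (0.59), and MAP3K8 (0.70) were higher. Of 13 listed activators of FOS and JUN family promoters, 11 were found and tested, with 3 higher and 3 lower (median -0.06). SRF, which with its ELK partners binds the serum response element of FOS, had 84.1 ± 2.24 CPM in the libraries labelled knockout and 113.2 ± 4.08 CPM in WT libraries (log2 fold change -0.43 ± 0.05, SE, edgeR adjusted p = 4.46e-08). Its partner ELK4 (-0.31) and MEF2C (-0.44) were lower, and STAT3 (0.25) and TCF7L2 (0.32) higher. Without WT replicate 1 only 1 activator was called higher, and 47.1% of all genes tested were called in either direction.

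Factors that act on the decay or modification of FOS and JUN family mRNA or protein were lower where they changed. Of 11 tested, 8 were lower and 0 higher (median log2 fold change -0.19, edgeR). The shares of all genes tested were 25.9% lower and 26.7% higher. At an unadjusted p under 0.05, with DESeq2 or with limma-voom, 0 of the 11 were higher. FBXW7, the ubiquitin ligase subunit that targets JUN, had 19.7 ± 0.173 CPM in the libraries labelled knockout and 32.6 ± 1.34 CPM in WT libraries (SD, n = 3 each, log2 fold change -0.73 ± 0.07, SE, edgeR adjusted p = 5.52e-09). The AU-rich element binding proteins KHSRP (-0.40), ZFP36L2 (-0.27) and ZFP36L1 (-0.22), and the SUMO protease SENP1 (-0.35), were also lower, whereas ZFP36 itself did not pass the test (-0.05). With cyclic loess scaling 5 of these genes were lower and 1 higher, and with upper-quartile scaling or without knockout-labelled replicate 3 there was also 1 higher. Of all genes tested, 50.7% were called with cyclic loess, 51.8% with upper-quartile scaling and 48.6% without knockout-labelled replicate 3.

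Genes with known AP-1 elements split evenly. Of 29 tested, 11 were higher and 11 lower (median log2 fold change 0.04). All genes tested gave 26.7% higher and 25.9% lower. The higher targets include MMP9, at 0.865 CPM in the libraries labelled knockout and 0.227 CPM in WT libraries. MMP9 passed the filter on low counts only through the libraries labelled knockout. The EGFR ligand HBEGF had 99.3 ± 1.20 CPM in the libraries labelled knockout and 203.5 ± 18.2 CPM in WT libraries (SD, n = 3 each, log2 fold change -1.04). The chemokine CXCL8 (-0.98) was also lower. The cornification enzyme TGM1 was higher, at 17.0 ± 1.72 CPM in the libraries labelled knockout and 5.47 ± 0.811 CPM in WT libraries (1.64), and so was the cytokine IL6 (1.59), at 3.56 CPM in the libraries labelled knockout and 1.17 CPM in WT libraries. PLAUR (0.04) and CD44 (-0.03) did not pass the test.

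Other immediate early genes went both ways. Of 25 tested, 6 were higher and 8 lower (median log2 fold change -0.05), beside 26.7% and 25.9% of all genes tested. CYR61 (-1.36), CTGF (-1.79) and DUSP2 (-0.82) were lower, and BTG1 (0.95) and KLF2 (0.93) higher. EGR1, a further target of SRF and ELK factors, had 18.6 CPM in the libraries labelled knockout and 26.6 CPM in WT libraries (-0.52), while DUSP1 (0.01), IER5 (0.03) and KLF6 (0.03) did not pass the test.

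**Figure D5:**
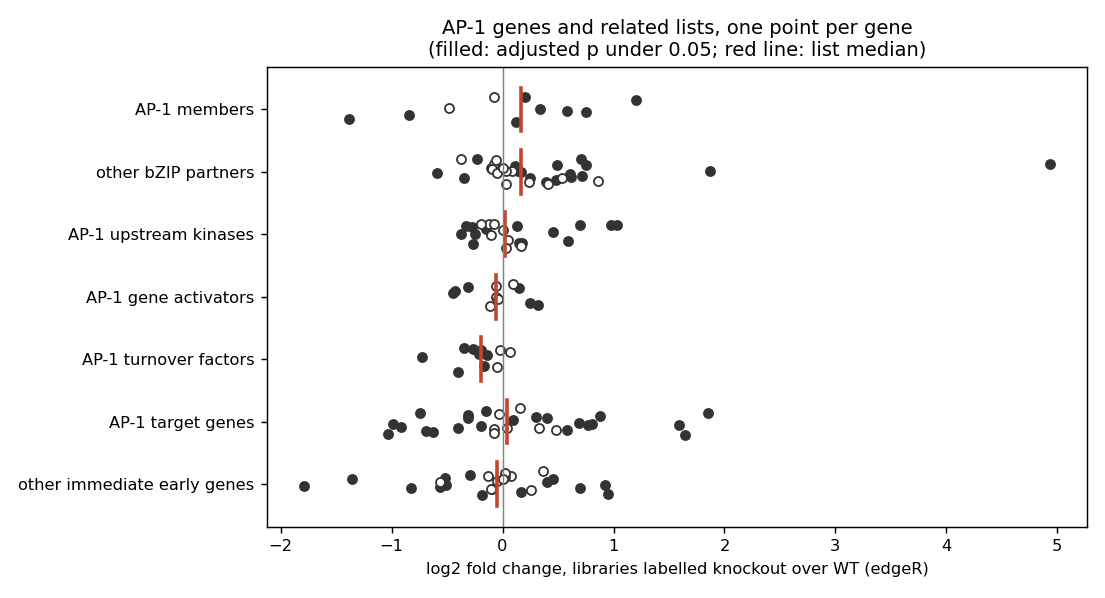
Log2 fold change (x axis, libraries labelled knockout over WT, edgeR) of the AP-1 genes and of each tested gene of 6 related lists (rows), filled where the adjusted p is under 0.05, with the list median as a red line. The medians lie between -0.19 for the turnover factors and 0.17 for the other bZIP genes, and the AP-1 genes spread from -1.38 to 1.21.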

How the data were processed

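Per the labels' protocols, libraries were made from column-purified RNA with the NEBNext Ultra kit, which keeps no strand information. Raw read counts per gene, 1 column per library, were taken from the table the authors deposited. The submitters' processing notes name fastp, HISAT2, STAR and DESeq with builds GRCh38 and hg38. The sources used here give no role, version, counting tool or strand setting. All 58735 genes have the coordinates of GENCODE 29. The authors' deposited second table holds the same counts, a normalised signal (counts divided by 1 factor per library), FPKM (not used), log2 fold changes and p-values of their comparison.

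The main test was the two-sided quasi-likelihood test of edgeR 4.0.16 in R 4.3.3, with group as its only term, TMM factors and filterByExpr (minimum count 10 and minimum total 15), leaving 16655 genes. P-values were adjusted by Benjamini-Hochberg, with a threshold of 0.05. Standard errors come from the F statistic. The fit was tested on simulated data with far fewer differing genes than were called here and the same spread for all genes. That does not test its error rate in this comparison. Replicate pairs had a chi-square of 2.40 to 6.20 per degree of freedom, above sampling noise, and all were kept as separate samples. The 10 genes and the lists were chosen with earlier results of these data known. Named list genes are up to 5 called members with the largest changes and at least 1 CPM; some genes the rule names are not reported here. Other list members (EGR1, ZFP36, PLAUR, CD44, DUSP1, IER5, KLF6) and the count table's bZIP label were chosen after values were seen, as was the GC correction. Alternatives also used limma 3.58.1 and DESeq2 1.42.0.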

Additional observations from a re-analysis of the deposited data

How the results depend on the processing

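FOSL1, JUN, JUND, JUNB, ATF3 and FOSL2 kept their direction and stayed past the threshold in all 17 alternatives, with log2 fold changes of -1.48 to -1.29 for FOSL1, -0.89 to -0.76 for JUN and 0.91 to 1.34 for JUND. FOS was not past the threshold in 7 of 17, among them DESeq2 (adjusted p = 0.0739), no filter (0.0617) and cyclic loess (0.229), and MAFF in 10 of 17. BATF3 passed with cyclic loess (-0.76, adjusted p = 0.0262), and FOSB, at -0.17 to 0.018 when each library was left out, changed sign without WT replicate 1; the cause was not tested. The number of AP-1 genes called higher was 4 to 5 when each library was left out, against 6, and the number lower stayed at 2. Of all genes tested, 46.1 to 48.6% were called with a library left out, against 52.6% in the main test. The share called was 51.8% with upper-quartile factors and 50.7% with cyclic loess or with the replicate block. Turnover factors called higher numbered 1 with upper-quartile factors and cyclic loess, and those lower 5 with cyclic loess; with each library left out, those higher ran from 0 to 1, and activators called higher from 1 to 3. Without division by length, FOSL1 took 23.8% of the Fos sum in the libraries labelled knockout and 48.3% in WT libraries, and JUND 19.7% of the Jun sum in the libraries labelled knockout and 10.3% in WT libraries. Libraries with the same replicate number showed no shared deviation (correlations 0.01, 0.02 and -0.02). Whether they were grown or prepared together cannot be told from these values. With the replicate block 5 AP-1 genes were higher and 2 lower, and MAFF was lost (edgeR adjusted p = 0.0532). Low counts limit FOS, FOSB and above all BATF3.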
